A study of Mus musculus with 8 samples.

Results

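Tppp and Slc6a19 are protein-coding genes 304542 bases apart on mouse chromosome 13, and 6 protein-coding genes lie between or beside them: Slc12a7, Nkd2, Trip13, Brd9, Zdhhc11 and Cep72. These 8 of the 47937 genes in the deposited count table were taken by name because Tppp and Slc6a19 had higher counts in Ndrg3-deficient than in control CD8SP thymocytes. The values that chose them are those of the comparison described here, so the fold changes of the 8 genes are a description and carry no p-value. RNA was sequenced from mature CD8SP (CD8 single-positive) thymocytes that had been sorted as TCRb+ and MHC-I high from mice of 6 to 7 weeks, with 4 biological replicates per group. The control group, Ndrg3ctrl, had the genotype Ndrg3 +/fl;Lck-cre+, and the knockout group, Ndrg3TKO, was Ndrg3 fl/fl;Lck-cre+, so the Cre transgene and at least 1 floxed allele were common to both. Cre was driven by the proximal Lck promoter, which is active in thymocytes from an early stage, and the floxed allele came from a single targeted embryonic stem cell clone. Nothing in the labels says that same-numbered mice of the 2 groups were littermates.

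The proteins of the 8 genes have unrelated roles. Tppp (tubulin polymerization promoting protein) binds and bundles microtubules and is known best from myelinating oligodendrocytes of the brain. Slc6a19 carries neutral amino acids with sodium across the brush border of intestine and kidney, and Slc12a7 moves potassium and chloride out of cells. Nkd2 binds Dishevelled and dampens Wnt signalling, Trip13 is an ATPase of the spindle checkpoint, Brd9 is a bromodomain subunit of the noncanonical BAF chromatin remodelling complex, Zdhhc11 belongs to the palmitoyltransferase family, and Cep72 is a protein of centriolar satellites, the granules around the centrosome.

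The stretch from Slc6a19 to Cep72 was chr13:73679745-74062299 (GRCm38), a length of 382555 bases. In the direction of rising coordinates it held Slc6a19 (minus strand), Slc12a7 (plus), Nkd2 (minus), Trip13 (minus), Brd9 (plus), Zdhhc11 (plus), Tppp (plus, chr13:74009407-74035753) and Cep72 (minus). Trip13 and Brd9 were divergent, with 27 bases between their starts. Tppp and Cep72 converged, with their ends 747 bases apart, and Zdhhc11 ended 16417 bases before Tppp began. A long noncoding gene on the other strand, Gm15912 (chr13:74008009-74009354), started 53 bases before Tppp and pointed away from it. Gm15912 was looked at after its values were seen, because it shares this start region.

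The bases before the starts of Tppp and Slc6a19 are shown because these genes differed most between the groups among the 8, and because the Tppp stretch also holds the start of Gm15912. They were read from the RefSeq promoter table (GRCm38.p6), which held 7 of the 8 genes and no entry for Zdhhc11. The Tppp run is chr13:74009169-74009406 on the plus strand and ends where the annotated first exon begins, so that 186 of its 238 bases also lie on the exon of Gm15912. The Slc6a19 run is chr13:73692637-73692886 on the minus strand, 250 bases before a RefSeq start that lies inside the longer gene span of GENCODE. Capitals mark matches to GCGTG or its reverse complement, the core of the xenobiotic response element, among 6 motifs searched.
Tppp: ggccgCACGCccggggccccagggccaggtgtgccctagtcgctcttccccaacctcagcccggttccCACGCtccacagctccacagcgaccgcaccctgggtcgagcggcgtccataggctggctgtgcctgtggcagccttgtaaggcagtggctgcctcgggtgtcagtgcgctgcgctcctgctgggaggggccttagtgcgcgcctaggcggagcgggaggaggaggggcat
Slc6a19: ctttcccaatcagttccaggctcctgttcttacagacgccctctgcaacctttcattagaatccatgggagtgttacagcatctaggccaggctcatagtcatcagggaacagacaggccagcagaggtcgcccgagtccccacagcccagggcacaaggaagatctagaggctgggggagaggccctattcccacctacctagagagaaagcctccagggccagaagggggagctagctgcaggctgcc

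The Tppp stretch was GC-rich and the Slc6a19 stretch poor in CpG. Over the 250 bases before the RefSeq start, GC content was 71.6% for Tppp and 57.6% for Slc6a19, against a median of 52.0% over the 27025 promoters of the table. The ratio of observed to expected CpG was 0.59 and 0.14, respectively, against a median of 0.38. Brd9 and Trip13, which share their start region, had ratios of 1.04 and 0.97. The 6 motifs were searched on both strands in the same 250 bases, and no match to one overlapped another in the runs printed above. The Tppp window held 2 matches to GCGTG, which 28.2% of all promoters contain, and 1 to the GC box GGGCGG (32.9% of promoters), the latter between the end of the printed run and the RefSeq start. The Slc6a19 window held no match to any of the 6. The T-box letters GGTGTGA (3.31% of promoters) and the RUNX letters TGTGGT (14.2%) were in none of the 7 windows, the ETS letters CCGGAAG (7.05%) were in those of Slc12a7, Trip13 and Brd9, and the hypoxia response letters ACGTG (16.6%) were in that of Cep72. GCGTG was also found before Slc12a7, Nkd2 and Trip13, and the GC box before Slc12a7, Trip13, Brd9 and Cep72.

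Total counts ranged from 21126698 in Ndrg3ctrl replicate 2 to 32668081 in Ndrg3TKO replicate 2, and 3 counts, taken as the floor of detection, were 0.0921 to 0.147 CPM (counts scaled to library size by the TMM method) in a library. Such floors and the counting intervals given here cover counting error only. Ndrg3, the targeted gene, was at 79.3 to 81.5 CPM in Ndrg3ctrl and at 48.4 to 55.3 CPM in Ndrg3TKO, a log2 fold change of -0.64 (SE, the standard error, 0.0526), with reads counted over all its exons. All 11 markers of CD8SP thymocytes exceeded 1 CPM, and their summed level was 8258 to 9629 CPM in Ndrg3ctrl and 8388 to 9239 CPM in Ndrg3TKO. Counts of 4 Y-linked genes were high in Ndrg3ctrl replicate 2 (340 CPM) and in Ndrg3TKO replicates 2 (379 CPM) and 3 (416 CPM), and at most 0.0752 CPM in the other libraries. The labels give no sex, and values within the libraries alike in these counts are given below.

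Of the 8 genes, 6 had enough counts to be tested, and 3 of these, Tppp, Slc6a19 and Slc12a7, passed a threshold of 0.05 on p-values adjusted over 14633 genes (Benjamini-Hochberg; edgeR, quasi-likelihood), all 3 of them with higher counts in Ndrg3TKO. Over all tested genes 1.15% passed in either direction and 0.793% passed with higher counts in Ndrg3TKO. Because this comparison was the basis of the choice, nothing is read from that share. The median log2 fold change was 0.23 over the 6 genes and 0.00 over all tested genes. Nkd2 and Zdhhc11 did not reach the minimum of counts.

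**Figure D1:**
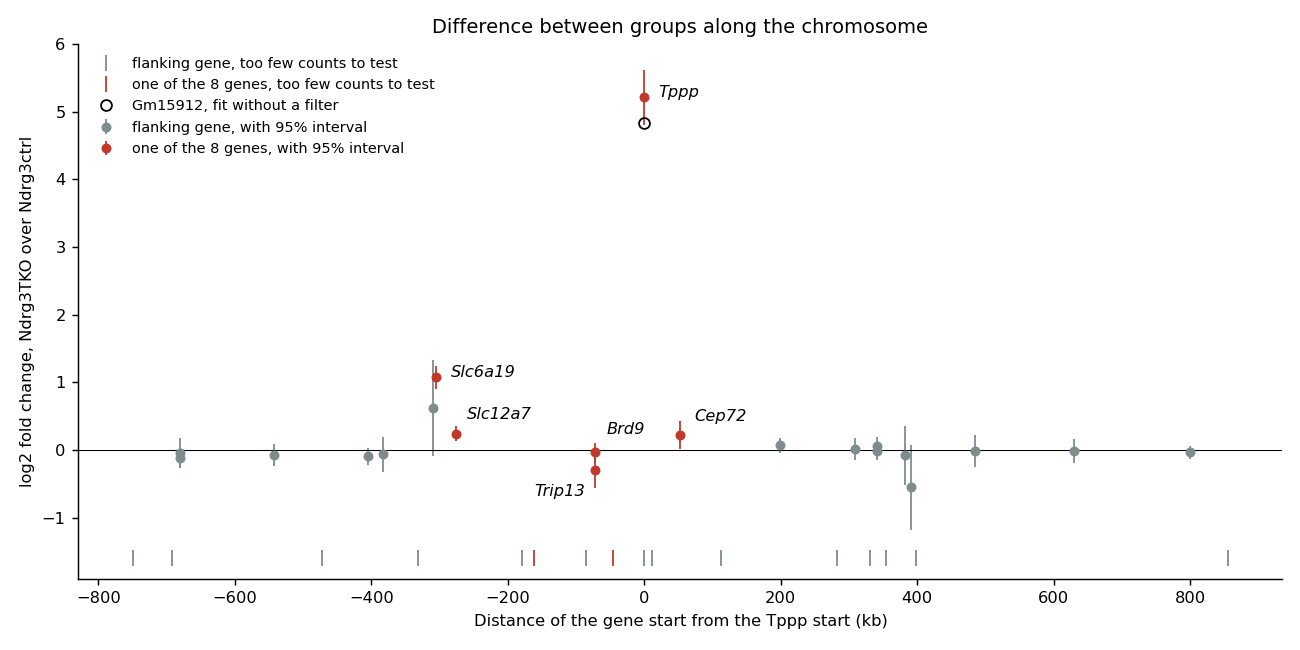
Log2 fold change of Ndrg3TKO over Ndrg3ctrl (vertical axis) against the distance of each gene's start from that of Tppp in kb (horizontal axis), for the 8 genes (red) and the flanking genes (grey), with 95% intervals over 4 libraries per group, ticks at the bottom for genes with too few counts to test, and an open circle for Gm15912 from the fit without a filter. Tppp stood at 5.21 and Slc6a19 at 1.08, and the tested flanking genes lay between -0.55 and 0.62.

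Tppp was close to the limit of detection in control cells and clearly measured in Ndrg3-deficient cells. Its raw counts were 17, 4, 11 and 8 in Ndrg3ctrl replicates 1 to 4 and 471, 428, 387 and 446 in Ndrg3TKO replicates 1 to 4. As levels these were 0.57, 0.197, 0.372 and 0.293 CPM in Ndrg3ctrl and 15.6, 13.4, 12.9 and 13.7 CPM in Ndrg3TKO. Each control library thus lay above the floor of 3 counts, and the lowest Ndrg3TKO library was far above the highest control library. The mean level was 0.358 ± 0.159 CPM (SD, n = 4) in Ndrg3ctrl and 13.9 ± 1.17 CPM (SD, n = 4) in Ndrg3TKO. The log2 fold change was 5.21 (SE 0.192, 95% interval 4.80 to 5.62), or 37.0-fold. Among the libraries with Y-linked counts the log2 ratio of mean levels was 6.07, from 1 control and 2 Ndrg3TKO libraries, and among the others it was 5.15, from 3 and 2.

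In bulk RNA, a larger share of cells with Tppp RNA and more Tppp RNA per cell cannot be told apart. Markers of oligodendrocytes, the cells best known for Tppp, did not separate the groups. Their summed level was 244 to 274 CPM in Ndrg3ctrl and 251 to 279 CPM in Ndrg3TKO, nearly all of it from Mbp, which T cells also transcribe. The defining marker Mog had no count in any library, and Mag was at most 0.0491 CPM.

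Slc6a19 was already expressed in control cells and was higher in Ndrg3TKO. Its levels were 42.1, 32.0, 39.1 and 38.8 CPM in Ndrg3ctrl replicates 1 to 4 and 84.7, 77.5, 85.7 and 73.8 CPM in Ndrg3TKO replicates 1 to 4. The groups did not overlap, and the lowest control value belonged to replicate 2, the library with the fewest counts. The means were 38.0 ± 4.28 CPM and 80.4 ± 5.76 CPM (SD, n = 4 each), a log2 fold change of 1.08 (SE 0.0784, 95% interval 0.91 to 1.25), or 2.11-fold. The log2 ratio was 1.35 among the libraries with Y-linked counts and 0.99 among the others.

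Cltrn, whose product brings Slc6a19 to the membrane in the kidney, had no count in any library. Of 4 markers of brush-border epithelium, Lrp2 and Slc5a1 had no count either, and the summed level of the list was 3.00 to 5.34 CPM in Ndrg3ctrl and 2.73 to 3.77 CPM in Ndrg3TKO, most of it from Slc3a1. The antisense gene Slc6a19os, which was looked at after its values were seen, overlaps the span of Slc6a19 in the annotation. It had 8 to 9 counts in the control libraries and 13 to 21 in the Ndrg3TKO libraries. The difference was 0.62 on the log2 scale (SE 0.332) with an edgeR adjusted p of 0.542, and scaled by depth its groups overlapped.

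Slc12a7 had the highest level of the 8 genes and differed by the smallest amount among the 3 that passed. It was at 464, 430, 474 and 439 CPM in Ndrg3ctrl replicates 1 to 4 and at 564, 525, 529 and 521 CPM in Ndrg3TKO replicates 1 to 4. The groups lay apart, and Ndrg3TKO replicate 1 stood above the other 3 libraries of its group. The means were 452 ± 20.6 CPM and 535 ± 19.7 CPM (SD, n = 4 each), and the log2 fold change was 0.24 (SE 0.0537, 95% interval 0.13 to 0.36), or 1.18-fold. The log2 ratio was 0.29 and 0.24 among the libraries with and without Y-linked counts. When any 1 of the 8 libraries was left out Slc12a7 no longer passed the threshold, although its log2 fold change stayed between 0.22 and 0.27.

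Trip13 and Brd9, which diverge from the same start region, gave no change past the threshold. Trip13 was at 9.62, 10.3, 9.68 and 9.40 CPM in Ndrg3ctrl replicates 1 to 4 and at 8.82, 8.29, 5.98 and 8.50 CPM in Ndrg3TKO replicates 1 to 4. Each Ndrg3TKO value was below each control value, with replicate 3 the lowest, and the log2 fold change was -0.30 (SE 0.122, 95% interval -0.56 to -0.04). Without Ndrg3TKO replicate 3 it was -0.19. For Trip13 the log2 ratio was -0.53 among the libraries with Y-linked counts and -0.14 among the others. Brd9 was at 45.1 to 52.7 CPM in Ndrg3ctrl (median 48.2) and at 43.8 to 50.2 CPM in Ndrg3TKO (median 48.0), so its groups overlapped nearly completely. Its log2 fold change was -0.03 (SE 0.0636, 95% interval -0.17 to 0.11).

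Cep72, the neighbour on which Tppp converges, also missed the threshold. It was at 16.5, 13.9, 14.4 and 15.4 CPM in Ndrg3ctrl replicates 1 to 4 and at 17.2, 16.7, 15.6 and 20.7 CPM in Ndrg3TKO replicates 1 to 4. The groups overlapped, since Ndrg3TKO replicate 3 lay below control replicate 1. The log2 fold change was 0.22 (SE 0.0974, 95% interval 0.01 to 0.43), and without Ndrg3TKO replicate 4, the highest library, it was 0.13.

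The remaining pair was silent or nearly so. Nkd2 had 3 counts over the control libraries and 2 over the Ndrg3TKO libraries, under the floor in each library. Zdhhc11, the nearest protein-coding gene upstream of Tppp, had no count in any library, which allows at most 0.0921 to 0.147 CPM. Neither gene reached the floor of 3 counts in any library, and a difference under that floor was not detectable at this depth. Of the 6 tested genes, 3 thus had groups that did not overlap with Ndrg3TKO higher and 1, Trip13, with Ndrg3TKO lower. Over all tested genes such separation occurred in 3.44% and 3.59%, respectively. Because this comparison was the basis of the choice of genes, nothing is read from these shares.

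**Figure D2:**
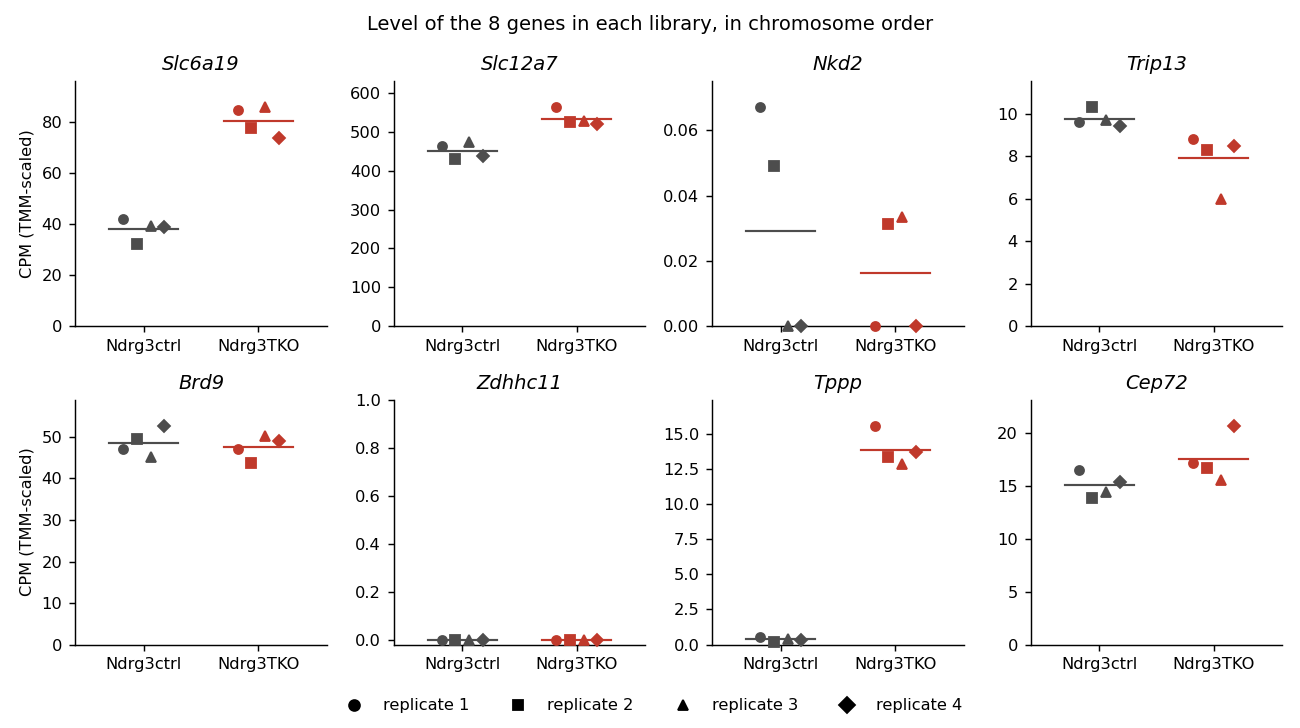
TMM-scaled CPM (vertical axes, from 0, with a separate scale for each gene) of the 8 genes in the 4 Ndrg3ctrl (grey) and 4 Ndrg3TKO (red) libraries, with symbols for the replicates and lines for group means. Tppp went from a mean of 0.358 to 13.9 CPM and Slc6a19 from 38.0 to 80.4 CPM, Brd9 and Cep72 overlapped, and Zdhhc11 was at 0 throughout.

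Levels can be compared between genes only per length, here as CPM per kb of annotated exons. In Ndrg3ctrl the order was Slc12a7 at 35.7 ± 1.63 CPM per kb (SD, n = 4), Slc6a19 at 7.59 ± 0.856, Brd9 at 6.98 ± 0.469, Trip13 at 2.81 ± 0.107, Cep72 at 1.84 ± 0.141 and Tppp at 0.0701 ± 0.0311 CPM per kb. Slc6a19 and Brd9 overlapped between libraries, and the other neighbours in this order did not. In Ndrg3TKO the order was Slc12a7 at 42.2 ± 1.55 CPM per kb (SD, n = 4), Slc6a19 at 16.1 ± 1.15, Brd9 at 6.84 ± 0.398, Tppp at 2.73 ± 0.23, Trip13 at 2.27 ± 0.374 and Cep72 at 2.15 ± 0.27 CPM per kb. Tppp thus passed from the last to the fourth place, next to Trip13, whose highest library (2.54) lay just above the lowest Tppp library (2.53). Trip13 and Cep72 overlapped in Ndrg3TKO. Even in Ndrg3TKO the level of Tppp per length remained far below those of Slc12a7 and Slc6a19.

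**Figure D3:**
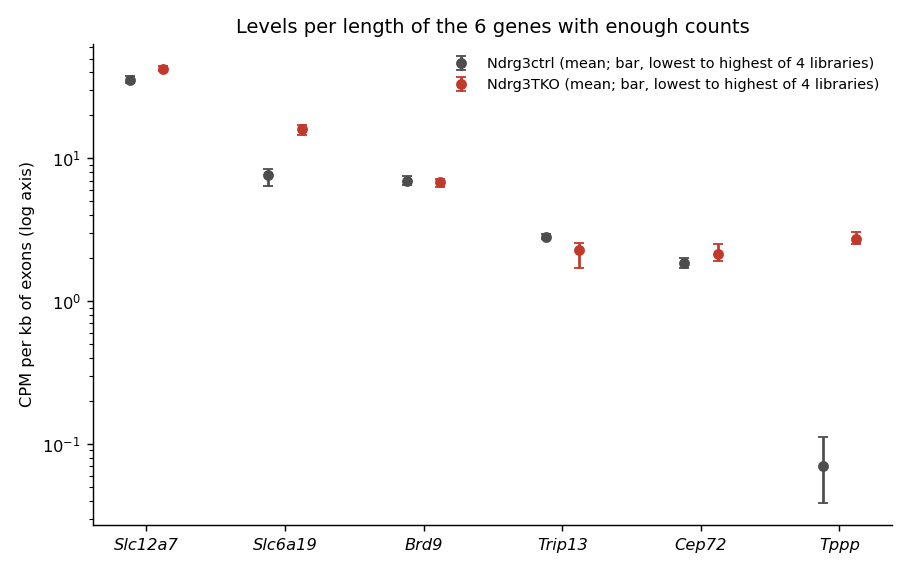
Mean CPM per kb of exons (vertical log axis) of the 6 genes with enough counts in Ndrg3ctrl (grey) and Ndrg3TKO (red), with bars from the lowest to the highest of 4 libraries. Tppp was lowest in Ndrg3ctrl (0.0701) and reached the range of Trip13 and Cep72 in Ndrg3TKO (2.73).

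To see how far along the chromosome such differences reached, all other genes of the table within the stretch or within 1 Mb of its ends were examined, chosen by position alone. There were 29, of which 9 lay to the left, 5 inside and 15 to the right, and the 5 inside were noncoding genes or pseudogenes. Of the 29, 15 had enough counts to be tested and 14 did not. None of the 15 passed edgeR's test, where 1.15% of all tested genes did, and 0 had an unadjusted p under 0.05, where 10.9% of all tested genes did. Their median log2 fold change was -0.03. DESeq2 called 1 of the 29, Gm15912. The 5 tested genes to the left, Ndufs6, Mrpl36, Lpcat1, Clptm1l and the telomerase gene Tert, had log2 fold changes from -0.12 to -0.04, and the 9 to the right from -0.55 to 0.07. The -0.55 belonged to Ftl1-ps1, with 9 to 17 counts per library and an edgeR adjusted p of 0.536, and the others to the right began at -0.07. Ftl1-ps1 alone of the 15 had groups that did not overlap, with Ndrg3TKO lower, as 3.59% of all tested genes had. The nearest protein-coding genes on the outer sides gave almost no counts. Slc6a18, a transporter gene of the same family only 1722 bases from Slc6a19, had 6, 0, 3 and 0 counts in Ndrg3ctrl and 0, 1, 3 and 0 in Ndrg3TKO. Slc9a3, the sodium-proton exchanger gene beyond Cep72, had none.

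Gm15912 was counted almost only in Ndrg3TKO. It had 0, 0, 1 and 0 counts in Ndrg3ctrl replicates 1 to 4 and 11, 10, 10 and 17 counts in Ndrg3TKO replicates 1 to 4, so all 4 Ndrg3TKO libraries were above the floor of 3 counts and no control library was. The ratio of summed counts, 48 against 1 and scaled for depth, was 41.3 with an exact 95% counting interval from 7.06 to 1663. It was too low for the main fit. Without a filter on low counts it differed by 4.84 on the log2 scale (SE 0.836) with an edgeR adjusted p of 9.69e-05, a value that depends on the prior count, in a fit where 1.11% of 24678 genes passed. In the 5 fits with 1 library left out in which it had enough counts, the value was 4.5 to 6.49, the highest without Ndrg3ctrl replicate 3, with adjusted p from 0.0058 to 0.0191. DESeq2 gave an adjusted p of 0.00168. In the fits with a library left out, Gm15912 passed the count filter through its Ndrg3TKO counts alone. It was also looked at after its values were seen, so these adjusted p-values are a description and add no support. The RNA was prepared with a stranded kit, but the strand setting of the counting is not given in the sources used here, so these reads cannot be placed on a strand. The pseudogene Gm6263, which lies within Tppp on the other strand, had 3 to 4 counts in the control libraries and 2 to 6 in the Ndrg3TKO libraries.

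The relatives and partners of the 8 genes were followed in 9 lists holding 135 genes, of which 105 were tested. Of these, 2 were higher (Mapre2 and Znrf3) and 1 was lower (Tubb3) in Ndrg3TKO by edgeR's test, with a median log2 fold change of -0.03 over the 105, beside 1.15% called among all genes. For Tppp the list held tubulins, tubulin modifiers and kinases, and 2 of 22 tested genes passed, with 5 of the 22 at an unadjusted p under 0.05 (10.9% over all tested genes). Tubb3, a beta-tubulin, was at 40.3, 45.3, 36.7 and 39.9 CPM in Ndrg3ctrl and at 31.0, 30.3, 32.7 and 28.3 CPM in Ndrg3TKO, with no overlap. The difference was -0.41 on the log2 scale (SE 0.0724, edgeR adjusted p = 0.0116), and it missed the threshold without Ndrg3TKO replicate 4 (adjusted p = 0.0621) or without Ndrg3ctrl replicate 1 (0.0506). Mapre2, which codes for a microtubule plus-end binding protein, was at 28.1 to 30.5 CPM in Ndrg3ctrl and at 34.3 to 40.4 CPM in Ndrg3TKO. The difference was 0.34 on the log2 scale (SE 0.0707, edgeR adjusted p = 0.0353), and it missed the threshold without any of the 4 control libraries or without Ndrg3TKO replicate 2 or 3 (adjusted p from 0.0561 to 0.131). All 9 tested alpha- and beta-tubulin genes had negative log2 fold changes, from -0.41 to -0.08, but only Tubb3 passed. The most abundant tubulins had log2 fold changes of -0.08 for Tubb5 and -0.11 for Tuba1b.

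The paralogues of Tppp were low in both groups. Tppp3 was at 0.474 ± 0.186 CPM in Ndrg3ctrl and 0.51 ± 0.164 CPM in Ndrg3TKO (SD, n = 4 each), a log2 fold change of 0.07 (SE 0.357). Tppp2 was at 0.0168 and 0.0646 CPM, under the floor, and was not tested.

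Among 21 genes of the Slc6 family and the partners of Slc6a19, 10 had no count in any library and only 2 were tested, so no pattern can be drawn from them. Slc6a6, the taurine transporter gene, was at 266 ± 14.2 CPM in Ndrg3ctrl and 315 ± 22.6 CPM in Ndrg3TKO (SD, n = 4 each), a difference of 0.25 on the log2 scale (SE 0.061, edgeR adjusted p = 0.0779). Its groups did not overlap, and it passed in 6 of 15 alternatives, among them DESeq2 (adjusted p = 0.017) and the fit without Ndrg3TKO replicate 4 (0.0292), with adjusted p from 4.50e-04 to 0.243 over all of them. The creatine transporter gene Slc6a8 was at 1.06 and 1.40 CPM, a difference of 0.40 (edgeR adjusted p = 0.662) that ranged from 0.21 to 0.66 with libraries left out. Of the other cation-chloride cotransporter genes and their kinases, 0 of 12 tested passed and 1 had an unadjusted p under 0.05 in edgeR's test (10.9% over all tested genes), with a median log2 fold change of 0.02. The kinase gene Wnk1 and Cab39, which codes for a scaffold protein of such kinases, were the most abundant of them and had log2 fold changes of 0.02 and 0.05.

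In the Wnt list around Nkd2, 1 of 14 tested genes passed edgeR's test (1.15% over all tested genes). An unadjusted p under 0.05 was found for 3 of the 14 (10.9% over all tested genes). Znrf3, a ubiquitin ligase gene whose product removes Frizzled receptors from the membrane, was at 126, 114, 127 and 115 CPM in Ndrg3ctrl and at 163, 155, 151 and 144 CPM in Ndrg3TKO. The groups lay apart, by 0.35 on the log2 scale (SE 0.056, edgeR adjusted p = 0.00577), and Znrf3 passed with every library left out in turn. Lef1 and Tcf7, the abundant transcription factor genes of the pathway in T cells, had log2 fold changes of -0.09 and 0.02 and did not pass.

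In the remaining lists no gene passed edgeR's test. The spindle checkpoint genes around Trip13 gave 0 of 10, with none at an unadjusted p under 0.05 and a median log2 fold change of -0.11. Among them Bub3 was at -0.05 and Bub1b at -0.15, and for Bub1b the Ndrg3TKO replicate 3, the same library that was lowest for Trip13, was at 28.9 CPM against 48.4 to 52.1 CPM in the other 3. Over all tested genes 10.9% had an unadjusted p under 0.05, and the counts in these short lists are read beside that share. Subunits of the complex that holds Brd9 gave 0 of 12, with 3 at an unadjusted p under 0.05, and the ATPase genes Smarca4 and Smarca2 were at 0.14 and 0.13. Palmitoyltransferase genes gave 0 of 20, with 2 at an unadjusted p under 0.05. The most abundant of them, Zdhhc18 at 0.05 and Zdhhc20 at -0.10, were not among those 2, and Zdhhc11 itself was not detected. Centrosome genes gave 0 of 12, with 1 at an unadjusted p under 0.05. The most abundant of them, Pcnt and Cep192, were at 0.08 and 0.00 and above that unadjusted limit.

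**Figure D4:**
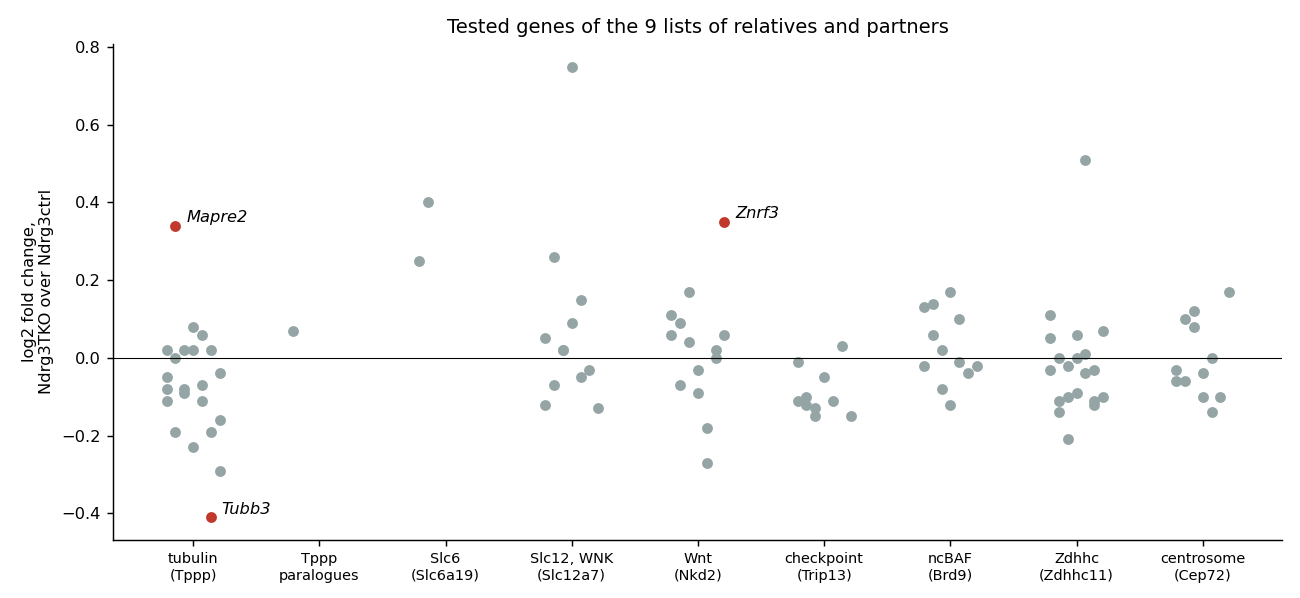
Log2 fold change of Ndrg3TKO over Ndrg3ctrl (vertical axis) of the 105 tested genes in 9 lists of relatives and partners (horizontal axis, with the gene each list belongs to), with genes past the threshold in red and named. Tubb3 at -0.41, Mapre2 at 0.34 and Znrf3 at 0.35 passed, and the largest difference, 0.75, belonged to a cotransporter gene that did not.

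Other genes correlated highly with Tppp and Slc6a19 over the 8 libraries, as genes whose groups lie apart in the same direction will. Likeness was taken as Pearson's r of log2 CPM, taken over both groups together, which lie apart for each of these genes, and is given as a description. Tppp and Slc6a19 themselves had r = 0.990. Within Ndrg3ctrl both ranked the replicates in the same order, with Tppp near the floor. Within Ndrg3TKO, replicate 3 was the lowest for Tppp (12.9 CPM) and the highest for Slc6a19 (85.7 CPM). Regulation in common was not tested. The 5 genes most like Tppp were Snx15 (r = 0.991), a sorting nexin gene, Tnfrsf19 (0.984), a receptor gene of the TNF family, Tcrg-C2 (0.983), a constant gene of the T cell receptor gamma locus, Ctla2a (0.981), a cysteine protease inhibitor gene, and Dirc2 (0.980), which codes for a lysosomal membrane protein. The 5 most like Slc6a19 were Gm15411 (0.990), Snx15 (0.986), Dirc2 (0.985), Tspan32 (0.983), a tetraspanin gene, and Trp53i11 (0.982). The size of the change was not shared. From Ndrg3ctrl to Ndrg3TKO, Tcrg-C2 went from 0.978 ± 0.432 to 31.0 ± 6.64 CPM, Snx15 from 12.5 ± 0.479 to 17.5 ± 0.441 CPM and Trp53i11 from 115 ± 1.02 to 139 ± 4.95 CPM (SD, n = 4 each). Tcrg-C2 and Ctla2a each have near-identical copies, so their counts are uncertain. Both also lie on chromosome 13, Tcrg-C2 at chr13:19304649-19307551 and Ctla2a at chr13:60934155-60936625, outside the stretch and its flanks.

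Markers of other cell types were mostly low. The double-positive thymocyte list, with 3 of 5 genes over 1 CPM, summed to 20.8 to 30.3 CPM in Ndrg3ctrl and 24.7 to 32.9 CPM in Ndrg3TKO. Of it, Dntt was at 14.2 to 18.7 CPM in Ndrg3ctrl and 19.2 to 25.4 CPM in Ndrg3TKO (0.45 on the log2 scale, edgeR adjusted p = 0.0783), without overlap. The other tested genes of that list went the other way and overlapped. Rag1 was at -0.46 (edgeR adjusted p = 0.823) and Aqp11 at -0.38 (0.475), so the list had no common direction. The B cell list summed to 252 to 301 CPM in Ndrg3ctrl and 261 to 312 CPM in Ndrg3TKO, mostly from Ighm, while Ms4a1 had no count. Cd79b of that list was at 10.9 to 13 CPM in Ndrg3ctrl and 8.08 to 9.20 CPM in Ndrg3TKO (-0.43 on the log2 scale, edgeR adjusted p = 0.0529), also without overlap. The NK cell list, 1 of whose 3 genes was over 1 CPM, moved with the groups as Tppp did. Its sum was 0.183 to 0.737 CPM in Ndrg3ctrl and 1.54 to 2.15 CPM in Ndrg3TKO, from Klrb1c (2.62 on the log2 scale, SE 0.358, edgeR adjusted p = 0.00149). The defining marker Ncr1 had no count in any library, and Tyrobp was at a mean of 0.0513 and 0.105 CPM. The part of any of these cells in the levels of Tppp and Slc6a19 was not tested.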

How the data were processed

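The authors deposited raw counts per gene for 8 libraries, made, per the labels, with cutadapt, STAR and featureCounts on GRCm38.p4. Strand and multi-mapping settings are not given in the sources used here. Symbols, positions and exonic lengths came from GENCODE M21 (GRCm38), which matched 47224 genes (98.5%). Genes were filtered with filterByExpr, scaled by TMM and tested with the quasi-likelihood test of edgeR 4.0.16 (R 4.3.3), robust, with a threshold of 0.05 on Benjamini-Hochberg adjusted p, and the procedure was tested on simulated data. CPM used TMM-scaled library sizes. log2 CPM for likeness had a prior count of 2.

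The 8 genes, the lists and the motifs were chosen with earlier results of these data known. Genes named are the 8, called flanking genes and the nearest outer ones, called and the 2 most abundant genes of each list, the 5 most alike to Tppp and to Slc6a19, and Ndrg3. Exceptions are named as such. Gm6263, Ftl1-ps1 and the left-hand flanking genes were also named after their values were seen, as were single markers. Replicates of a group differed by a chi-square of 9.98 to 35.2 per gene, so none duplicates another. Alternatives were DESeq2 1.42.0, RLE scaling, library totals, other filters, a Y-linked covariate, a replicate block and each library left out.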

Additional observations from a re-analysis of the deposited data

Results flagged for a closer look

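Among 78 groups of 4 libraries checked, 8 had a library far from the other 3 by Dixon's criterion, which chance alone meets in about 1 group in 20 (3.9 groups). For Slc12a7, Ndrg3TKO replicate 1 was at 564 CPM against 521 to 529 in the others. For the taurine transporter gene Slc6a6, replicate 4 was the lowest in both groups, at 244 CPM against 271 to 274 in Ndrg3ctrl and at 282 CPM against 325 to 329 in Ndrg3TKO. For Bub1b, Ndrg3TKO replicate 3 was at 28.9 CPM against 48.4 to 52.1. Ndrg3ctrl replicate 2, the library with the fewest counts, stood apart for Zdhhc18 (385 CPM against 367 to 368), Snx15 (11.8 CPM against 12.7 to 12.8) and Tspan32 (126 CPM against 149 to 154). For Gm15912, the single count of Ndrg3ctrl replicate 3, 0.0339 CPM, was set against 0 in the other control libraries.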

How the results depend on the processing

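Tppp and Slc6a19 passed the threshold under each alternative that tested them, with log2 fold changes from 5.05 to 5.53 and from 1.00 to 1.13. Both were chosen for their difference in these same libraries, so that passing is a description and adds no support. With at least 10 counts required in every library Tppp was not tested, and Slc12a7 was lost in each of the 8 fits without 1 library, so that 2 of the 8 genes passed there. Over all genes 168 passed, against 309 with DESeq2, 437 with the Y-linked covariate, 274 without a filter, and 90 to 158 with each library left out. Of the flanking genes, 1 (Gm15912) passed instead of 0 with DESeq2 and without a filter, and 0 to 1 with each library left out. Of the partner genes, 5 passed with DESeq2, with the covariate and without a filter, and 1 to 3 with each library left out. With a replicate block, 800 genes and 9 partner genes passed. Same-numbered libraries correlated at 0.181, 0.415, -0.055 and 0.301 after removal of group means, and 3 of 4 correlated best with their own number. The numbers were not taken to pair the samples, because replicate 3 fell under the limit of 0.1 set on this correlation. These values do not settle whether same-numbered libraries belong together, and a shared batch was not tested. The sign turned for genes with no detectable change: Cep192 was at 0.01 with the covariate and 0.00 by library totals, and with libraries left out Tppp3 ranged from -0.11 to 0.26, Tcf7 from -0.02 to 0.03, Brd9 from -0.06 to 0.01, Bub1b from -0.23 to 0.01 and Cep192 from -0.02 to 0.00. Depth limits what can be said of Nkd2, Zdhhc11, Gm15912 and the outer neighbours.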
